A study of Rattus norvegicus with 8 samples.

Results

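Amino acid catabolism enzymes were examined in the kidneys of rats fed a control diet or a high-phosphorus (HP) diet. The list holds 56 genes that break down or convert amino acids, and its members were found on the array by an exact match of the gene symbol given for the platform, using only probe sets assigned to 1 symbol. Of the 56 genes, 54 were measured, by 69 of the 31042 probe sets tested. A single probe set was present for 42 genes, 9 genes had 2 and 3 genes (Afmid, Gldc and Gcdh) had 3. The whole array held 14217 genes with a probe set of their own. Mut and Ddo were not measured under this rule. Mut, methylmalonyl-CoA mutase, is now named Mmut, and 3 probe sets carried that symbol. They were kept apart from the counts and are given with the branched-chain pathway.

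The rats were male Wistar rats, 8 weeks old, with 4 rats per diet and 1 rat per array. The control group received the AIN-93G diet with 0.3% phosphorus, and the HP group received the same diet with 1.2% phosphorus for 24 days. The added phosphorus was KH2PO4 in place of corn starch, so that effects of phosphorus and of potassium cannot be told apart. RNA was taken from whole kidney of rats that the study had picked as close to their group's average, so the arrays show the variation of chosen animals and not of all.

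Amino acids that are not used for protein lose their nitrogen and are oxidized, and the carbon skeletons enter the citric acid cycle or glucose synthesis. In the kidney these reactions are concentrated in the proximal tubule, which reabsorbs filtered amino acids. Branched-chain amino acids are first transaminated, then committed to oxidation by a mitochondrial dehydrogenase complex. Glycine is cleaved by a mitochondrial complex or exchanged with serine, proline is oxidized in mitochondria, and tryptophan is degraded through kynurenine towards either nicotinamide adenine dinucleotide (NAD) or full oxidation. The kidney is also known as a source of guanidinoacetate, the precursor of creatine.

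The deposited values are logarithms of array intensities whose base was not stated, and they were taken as log2. The summary method, DFW, shrinks the differences of each probe set strongly, so a difference of these values is not a fold change. Each array is therefore given as its value minus the control mean, in millionths of a log2 unit, and differences are also given as a standardized difference, the HP minus control difference divided by the SD within diets. Within-diet SDs of the member probe sets ran from 0.263 to 142 millionths, so differences in millionths cannot be ranked between genes. Adjusted p are those of limma with Benjamini-Hochberg adjustment over all 31042 probe sets, and a probe set was called when this p was under 0.05. The exact permutation test over the 70 arrangements of 8 arrays cannot give a p below 0.029, the value it gave wherever the 2 diets did not overlap.

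Before the diets were compared, the tissue was checked against marker genes. All 17 measured markers of the proximal tubule had control means between 10.37 and 13.86, whereas the 5 liver genes listed as absent from kidney lay between 6.15 and 6.58. Over all 31042 probe sets the control means ran from 5.58 to 14.51, and 4298 were at 9 or more. The level of a probe set also depends on its probes, so these ranges only show that the markers of the labelled tissue were present.

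The members were mostly lower on the HP diet. Of the 69 member probe sets, 62 were lower in value (89.9%), compared with 57.7% of all probe sets, and the median standardized difference was -1.55 against -0.21 over all probe sets. limma called 5 of the 69 lower and none higher. These were the probe set of Kynu, 2 probe sets of Afmid, and those of Gamt and Cbs. The background shares were 1.13% of all probe sets called lower and 2.95% called higher. At an unadjusted p under 0.05, 31 member probe sets were lower, beside a background of 9.45%, and 2 were higher (Bcat1 and Aass), beside a background of 9.53%.

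The diets did not overlap for 21 member probe sets, with all HP arrays below all control arrays, where the background was 5.81%. The opposite arrangement was found for 1 (Bcat1), where the background was 7.09%. By rank products, the ranking test used in the study, 17 member probe sets were lower at a false discovery rate (FDR) under 0.05 and 1, again of Bcat1, was higher, beside backgrounds of 2.31% and 3.39%. Rank products orders the differences in millionths across probe sets, so its calls depend on the scale of each probe set. A Prodh probe set whose diets overlapped was called (standardized difference -1.1, FDR 0.017). Cbs, without overlap, was not (standardized difference -3.66, FDR 0.35). When the brightest probe set stood for each gene, 48 of 54 genes were lower in value with a median standardized difference of -1.53, and 3 were called. Among probe sets with a mean of 9 or more, 4 of 46 members were called lower, where the background was 3.06%, and the median standardized difference was -1.69 for members and -0.23 for all 4281.

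The shift was seen on each HP array. The mean standardized deviation of the 69 probe sets from the control mean was -1.71, -2.05, -1.01 and -1.22 on the 4 HP arrays and 0.35, -0.48, 0.23 and -0.1 on the 4 control arrays, so the diets did not overlap. The same mean over all 31042 probe sets lay between -0.16 and 0.01 on the HP arrays. HP replicate 2 was the lowest array for the members and HP replicate 3 the highest of the HP arrays.

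**Figure D1:**
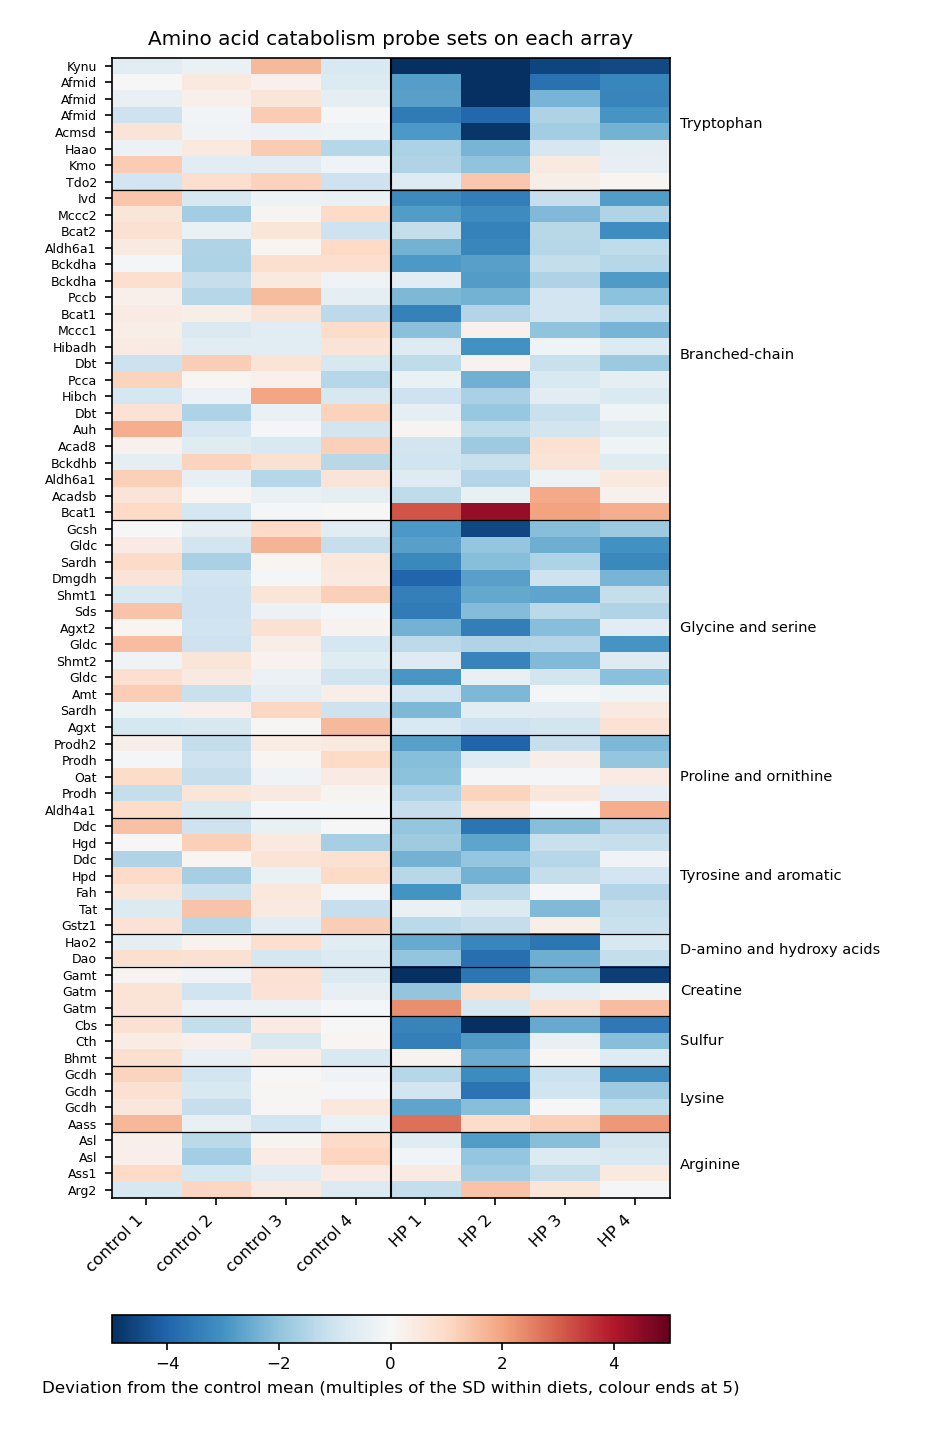
Each row is 1 of the 69 member probe sets and each column 1 array, with 4 control arrays on the left and 4 HP arrays on the right. Colour gives the deviation from the control mean in multiples of the SD within diets, blue for lower and red for higher, with the colour scale ending at 5. The HP columns are blue for most rows, most strongly in the tryptophan rows. The row with the strongest red is the Bcat1 probe set with a standardized difference of 2.84. Paler red is found in a few other rows, among them Aass on all 4 HP arrays.

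The tryptophan pathway held the members with the most negative standardized difference, Kynu, and 3 of the 5 called probe sets. Its 6 genes were measured by 8 probe sets, 7 of which were lower in value, with a median standardized difference of -2.98, or -2.14 over the brightest probe set of each gene. The steps with the most negative values were Kynu, Afmid and Acmsd, and of these Kynu and Afmid were called. For 5 of the 8 probe sets all HP arrays were below all control arrays, where the background was 5.81%. With the brightest probe set of each gene this held for 3 of 6. Over all probe sets 57.7% were lower in value and 1.13% were called lower.

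Kynu encodes kynureninase, which splits 3-hydroxykynurenine into 3-hydroxyanthranilate and alanine. Its values on the control arrays were -2.28, -1.33, 6.8 and -3.18 millionths, and on the HP arrays -22.4, -27.2, -19.3 and -19.1 millionths. All HP arrays were thus far below the control arrays, with little spread among them. Kynu fell by 22.0 ± 2.98 millionths (SE, n = 4 per diet), a standardized difference of -5.22, the lowest of all members (adjusted p = 0.014). It was also called by rank products (FDR 0.043).

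Afmid encodes arylformamidase, which frees kynurenine from N-formylkynurenine. The Afmid probe set with the larger fall had values of -0.14, 6.38, 2.65 and -8.89 millionths on the control arrays and -36.7, -76.9, -49.4 and -43.2 on the HP arrays. It fell by 51.5 ± 9.4 millionths with a standardized difference of -3.88 (adjusted p = 0.031). The array's maker marks this probe set as one whose probes may also match other transcripts. A separate Afmid probe set read -0.87, 0.63, 1.48 and -1.23 millionths on the control arrays and -6.62, -12.9, -5.68 and -8.06 on the HP arrays, and fell by 8.32 ± 1.73 millionths (standardized difference -3.4, adjusted p = 0.045). The brightest of the 3 read -12.6, -1.64, 15.3 and -1.12 millionths on the control arrays and -43.2, -48.1, -18.7 and -35.8 on the HP arrays. It too had no overlap between diets (standardized difference -2.98) and did not pass (adjusted p = 0.063), although rank products called it (FDR 0.017). HP replicate 2 was the lowest array for all 3 Afmid probe sets.

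Acmsd encodes the decarboxylase that directs the pathway towards oxidation and away from quinolinate, the precursor of NAD. Its control arrays were at 38.3, -10.7, -16.9 and -10.6 millionths and its HP arrays at -167, -280, -101 and -137. The diets did not overlap, with the lowest value again on HP replicate 2. The difference of -171 ± 40.8 millionths corresponded to a standardized difference of -2.97 and missed the threshold in limma (adjusted p = 0.064), whereas rank products called it lower (FDR 0.00035). Control replicate 1 stood above the other control arrays.

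The other enzymes of the pathway differed less. Kmo, the hydroxylase that precedes Kynu, had a standardized difference of -0.88 (adjusted p = 0.55), with 2 of 4 HP arrays below the lowest control array. Haao, which opens the ring of 3-hydroxyanthranilate, was at -1.31 (adjusted p = 0.36). For Tdo2, the dioxygenase that starts the pathway in liver, the value was 0.27 (adjusted p = 0.9), and its control mean was 6.18, near the low end of the values on the array.

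**Figure D2:**
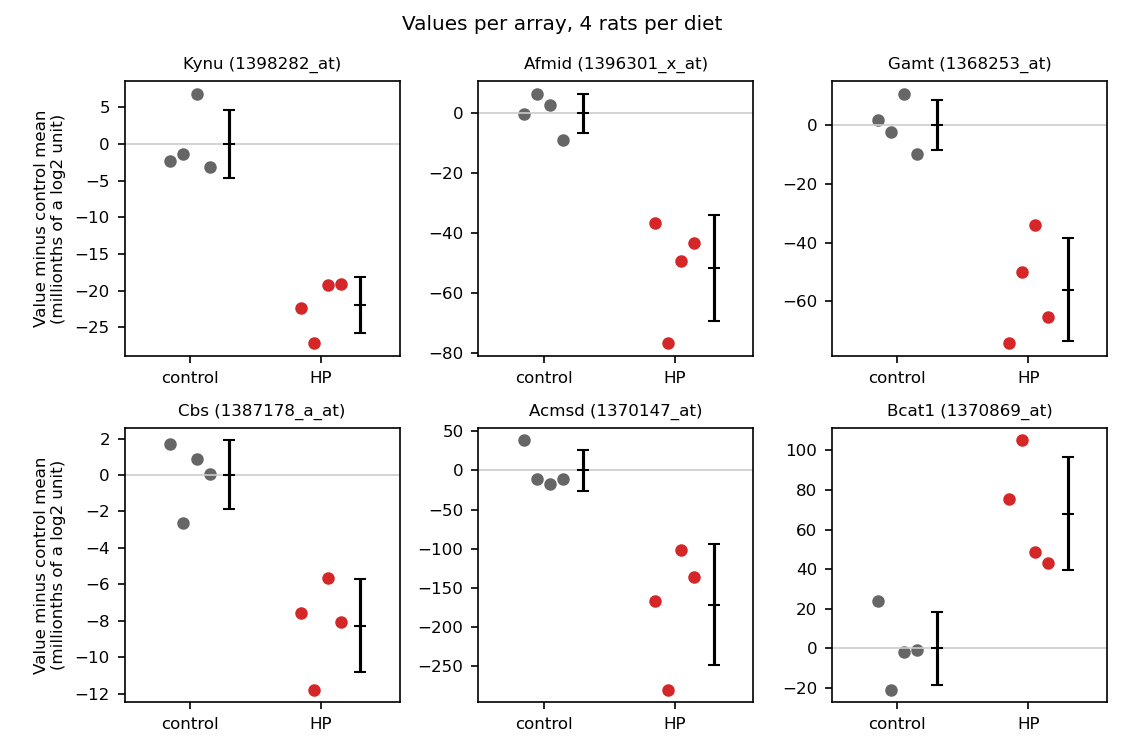
Values of 6 member probe sets on each array, in millionths of a log2 unit relative to the control mean, with control arrays in grey and HP arrays in red (n = 4 per diet). The horizontal ticks and bars give the mean and SD, and the axes differ between panels. In the panels of Kynu, Afmid, Gamt, Cbs and Acmsd all HP arrays lie below all control arrays, and in the panel of Bcat1 all lie above.

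Outside the 3 compared pathways, a gene of creatine synthesis and one of sulfur amino acid metabolism were called lower. Gamt encodes guanidinoacetate N-methyltransferase, which makes creatine from guanidinoacetate. Its control arrays read 1.68, -2.29, 10.6 and -9.98 millionths and its HP arrays -74.3, -50.1, -34.1 and -65.3, with no overlap. Gamt fell by 55.9 ± 9.81 millionths, a standardized difference of -4.03 (adjusted p = 0.028, rank product FDR 0.0049). Gatm, the preceding enzyme, which transfers the amidino group of arginine to glycine, was not called. Its bright probe set was 2.27 ± 1.69 millionths higher in value (standardized difference 0.95, adjusted p = 0.52) and the other was lower in value (-0.46, adjusted p = 0.79).

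Cbs encodes cystathionine beta-synthase, which joins homocysteine and serine. It read 1.7, -2.66, 0.89 and 0.08 millionths on the control arrays and -7.55, -11.8, -5.65 and -8.05 on the HP arrays. The arrays of the diets were separate, and Cbs fell by 8.26 ± 1.6 millionths (standardized difference -3.66, adjusted p = 0.037). Rank products did not call it (FDR 0.35). Cth, the lyase that acts on cystathionine, was at -2.19 (adjusted p = 0.14), and Bhmt, which remethylates homocysteine with betaine, at -0.72 (adjusted p = 0.64).

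The call of Kynu held when each of the 8 arrays was left out in turn (adjusted p 0.027 to 0.049). It was lost when the replicate number was added as a block (adjusted p = 0.054). The other 4 calls were lost in 7 of the 8 refits that left out an array. Both Afmid probe sets remained called only without HP replicate 2 (adjusted p 0.031 and 0.016), and Gamt and Cbs only without HP replicate 3 (adjusted p 0.02 and 0.043). Without control replicate 3 the adjusted p rose to 0.12 and 0.09 for Afmid, 0.082 for Gamt and 0.1 for Cbs. Conversely, some members passed only when an array was left out. Among them were Acmsd without HP replicate 2 (adjusted p = 0.041) and the brightest Afmid probe set without HP replicate 3 (adjusted p = 0.042). When each array was centred on its median, none of the 5 called probe sets passed (adjusted p 0.98 for each). In that setting 68 of the 69 member probe sets were lower in value. The median standardized difference was -0.94 over all probe sets and -1.04 over the members. Centring moved the median difference of all probe sets from -0.224 to -61.3 millionths, whereas the median SD within diets was 2.22 millionths. A shift of this size outweighs the differences of most probe sets, so this setting cannot show whether members differed from the background. Of the 7 member probe sets that were higher in value, 6 were then lower (Tdo2, Acadsb, Aldh4a1, Gatm, Aass and Arg2). Bcat1 remained higher in value by 6.87 millionths (adjusted p = 0.99).

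Sequences upstream of 3 genes called lower are shown with marked motifs, neither of which was found in all 3. They are the 250 bases before the start of each gene, 5′ to 3′ on the gene's strand, from the RefSeq promoters of build GRCr8. Capitals mark a GC box (GGGCGG) or a CCAAT box (CCAAT) on either strand, so that CCGCCC and ATTGG are the same letters read on the other strand. Kynu lies at chr3:48188036-48188285 on the plus strand, Gamt at chr7:10099034-10099283 on the plus strand and Cbs at chr20:9733926-9734175 on the minus strand.
Kynu: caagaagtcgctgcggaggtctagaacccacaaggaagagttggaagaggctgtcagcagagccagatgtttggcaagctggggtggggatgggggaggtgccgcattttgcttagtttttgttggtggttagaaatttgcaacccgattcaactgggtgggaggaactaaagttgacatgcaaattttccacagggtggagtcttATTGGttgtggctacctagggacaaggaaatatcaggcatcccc
Gamt: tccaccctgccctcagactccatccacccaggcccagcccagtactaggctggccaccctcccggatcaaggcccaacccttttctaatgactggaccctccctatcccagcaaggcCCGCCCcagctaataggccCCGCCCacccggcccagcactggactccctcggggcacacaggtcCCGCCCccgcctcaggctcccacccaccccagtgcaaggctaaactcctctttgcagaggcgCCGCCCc
Cbs: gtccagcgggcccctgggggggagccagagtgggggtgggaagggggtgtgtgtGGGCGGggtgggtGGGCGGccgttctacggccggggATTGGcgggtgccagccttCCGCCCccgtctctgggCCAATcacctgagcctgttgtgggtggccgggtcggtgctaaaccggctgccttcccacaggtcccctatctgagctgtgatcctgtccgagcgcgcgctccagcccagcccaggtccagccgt
The window of Kynu held 1 CCAAT box, which began 44 bases before the start, and no GC box. That of Gamt held 4 GC boxes and no CCAAT box, and that of Cbs held 3 GC boxes and 2 CCAAT boxes.

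Promoter sequences were matched for 48 of the 56 members, with 53 promoters. A GC box was present in 24 of these (45.3%), compared with 30.5% of all 33465 promoters of the same length. A CCAAT box was present in 29 (54.7%) and in 34% of all promoters. The letters TATAAA of the TATA box were found in 8 (15.1%, and 12.9% of all), the HNF1 letters GTTAAT in 3 (5.66%, and 6.45% of all) and the ATF4 letters TGATGNAA in 1, that of Tat (1.89%, and 3.4% of all). These are matches of letters on both strands and not binding sites, and the motifs were chosen with the expression values known. The window before Afmid is not printed because it lies in the neighbouring gene Tk1, which starts 3 bases away on the opposite strand. None of the 3 Tk1 probe sets was called (standardized differences 0.36, 1.47 and -1.2, adjusted p 0.84, 0.3 and 0.44).

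Glycine, serine and proline enzymes were lower in value without passing the threshold. Their 14 genes were measured by 18 probe sets, of which 17 were lower in value and none was called (median standardized difference -1.76). At an unadjusted p under 0.05, 10 were lower, beside a background of 9.45%. Over all probe sets 57.7% were lower in value and 1.13% were called lower. The glycine and serine genes were the more uniform group. All 13 of their probe sets were lower in value with a median of -2.11. All HP arrays were below all control arrays for 7, where the background was 5.81%. The 5 probe sets of proline and ornithine enzymes had a median of -0.45 and none was free of overlap.

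Gcsh, the lipoyl carrier protein of the glycine cleavage complex, had the smallest adjusted p of this pathway (standardized difference -2.84, adjusted p = 0.095). Its control arrays read 0.0, -0.42, 0.87 and -0.45 millionths and its HP arrays -2.45, -3.9, -1.84 and -1.55, with no overlap. Gldc, the decarboxylase of the same complex, gave a difference of -65.6 ± 18.3 millionths for its brightest probe set (standardized difference -2.53, adjusted p = 0.098). This probe set read 10.5, -24.8, 44.3 and -30.0 millionths on the control arrays and -70.4, -49.9, -63.6 and -78.4 on the HP arrays. The other 2 Gldc probe sets were also lower in value, at -1.81 and -1.57 (adjusted p 0.21 and 0.27). The probe set at -1.81 read 24.5, -16.6, 5.5 and -13.4 millionths on the control arrays and -20.7, -24.3, -23.4 and -47.0 on the HP arrays. Rank products called it and the brightest one lower (FDR 0.044 and 0.0041). Amt, the aminomethyltransferase of the complex, was at -0.87 (adjusted p = 0.55).

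Dmgdh, which demethylates dimethylglycine to sarcosine, read 8.41, -13.1, -1.37 and 6.04 millionths on the control arrays and -51.7, -35.3, -13.7 and -30.2 on the HP arrays. HP replicate 3 came within 1 millionth of the lowest control array, and the standardized difference was -2.51 (adjusted p = 0.1, rank product FDR 0.029). Sardh, the next enzyme, was at -2.53 and -0.71 in its 2 probe sets (adjusted p 0.1 and 0.64). Sds, serine dehydratase, read 65.3, -47.5, -13.8 and -3.97 millionths on the control arrays and -162, -100.4, -63.0 and -70.3 on the HP arrays. The difference for Sds was -99.0 ± 32.7 millionths (standardized difference -2.14, adjusted p = 0.14, rank product FDR 0.0019). Shmt1 and Shmt2, the cytosolic and mitochondrial enzymes that interconvert serine and glycine, had no overlap between diets and standardized differences of -2.45 and -1.71 (adjusted p 0.11 and 0.25). Agxt2 and Agxt, which transaminate glyoxylate to glycine, were at -2.11 and -0.5 (adjusted p 0.22 and 0.77).

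Prodh and Prodh2 are the dehydrogenases of proline and hydroxyproline. Prodh2 read 3.86, -14.7, 4.6 and 6.26 millionths on the control arrays and -33.7, -49.9, -14.5 and -27.9 on the HP arrays. HP replicate 3 lay just above control replicate 2, and the standardized difference was -2.52 (adjusted p = 0.099, rank product FDR 0.032). The brighter Prodh probe set read -3.32, -85.6, 6.54 and 82.4 millionths on the control arrays and -174, -53.1, 23.4 and -156 on the HP arrays. Its diets overlapped widely, so that limma gave a standardized difference of -1.1 (adjusted p = 0.44) while rank products called it lower (FDR 0.017). Aldh4a1, which follows Prodh, was at 0.33 (adjusted p = 0.86), and Oat, ornithine aminotransferase, at -0.45 (adjusted p = 0.79).

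The branched-chain pathway showed smaller standardized differences. Of its 17 genes, 16 were measured by 20 probe sets, of which 18 were lower in value and none was called (median standardized difference -1.08). Over all probe sets 57.7% were lower in value and 1.13% were called lower. At an unadjusted p under 0.05, 8 were lower and 1 was higher, beside backgrounds of 9.45% and 9.53%. Every HP array was below every control array for 2 of the 20 probe sets, those of Bcat2 and Ivd, and above for 1, that of Bcat1. The backgrounds were 5.81% and 7.09%.

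The transaminases that start the pathway differed from each other. Bcat1, the cytosolic enzyme, read 23.7, -20.9, -1.94 and -0.86 millionths on the control arrays and 75.3, 104.9, 48.5 and 43.0 on the HP arrays in one probe set. This was the only member probe set with all HP arrays above the control arrays. The control mean of this probe set was 6.43, near the low end of the values on the array. The difference was 67.9 ± 16.9 millionths (standardized difference 2.84, adjusted p = 0.072), and rank products called it higher. Median centring, which moved all probe sets towards lower values, left 6.87 millionths (standardized difference 0.11, adjusted p = 0.99). The sign kept there depends on the size of the difference in millionths. The other, brighter Bcat1 probe set (control mean 6.6) was lower in value (-1.75, adjusted p = 0.23), so the 2 probe sets of this gene disagreed in direction. Bcat2, the mitochondrial enzyme, was at -2.27 (adjusted p = 0.13).

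The dehydrogenase complex that commits the keto acids to oxidation is built from Bckdha, Bckdhb and Dbt. Bckdha had standardized differences of -2.05 and -1.93 in its 2 probe sets (adjusted p 0.16 and 0.18). The dimmer of these read 23.6, -32.0, 13.8 and -5.37 millionths on the control arrays and -14.6, -78.9, -43.7 and -79.7 on the HP arrays, with HP replicate 1 inside the control range, and was called lower by rank products (FDR 0.012). Bckdhb was at -0.5 (adjusted p = 0.76) and the Dbt probe sets at -0.94 and -1.02 (adjusted p 0.53 and 0.48).

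Ivd, isovaleryl-CoA dehydrogenase of the leucine branch, had the smallest adjusted p of the pathway's lower probe sets. It read 2.72, -1.56, -0.5 and -0.65 millionths on the control arrays and -6.18, -6.7, -2.25 and -5.41 on the HP arrays (standardized difference -2.66, adjusted p = 0.091). Mccc2 and Mccc1, the subunits of the carboxylase that follows, were at -2.42 and -1.55 (adjusted p 0.11 and 0.28), and Auh, the hydratase after them, at -0.67. In the valine and isoleucine branches, Acad8 was at -0.55, Acadsb at 0.12, Hibch at -0.98 and Hibadh at -1.14, with adjusted p between 0.5 and 0.95.

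Aldh6a1, the semialdehyde dehydrogenase at the end of the valine branch, was measured by 2 probe sets that differed. The dimmer read 21.5, -73.6, 3.98 and 48.1 millionths on the control arrays and -117, -161, -70.5 and -62.4 on the HP arrays (standardized difference -2.09, adjusted p = 0.15, rank product FDR 0.0042). The brighter was at -0.46 (adjusted p = 0.84). Pccb and Pcca, the subunits of propionyl-CoA carboxylase, were at -1.91 and -0.99 (adjusted p 0.19 and 0.52). The 3 Mmut probe sets gave 0.18, -2.05 and -1.07 (adjusted p 0.93, 0.16 and 0.46), and adding them, a choice made after the data were seen, left the count of called members at 5.

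**Figure D3:**
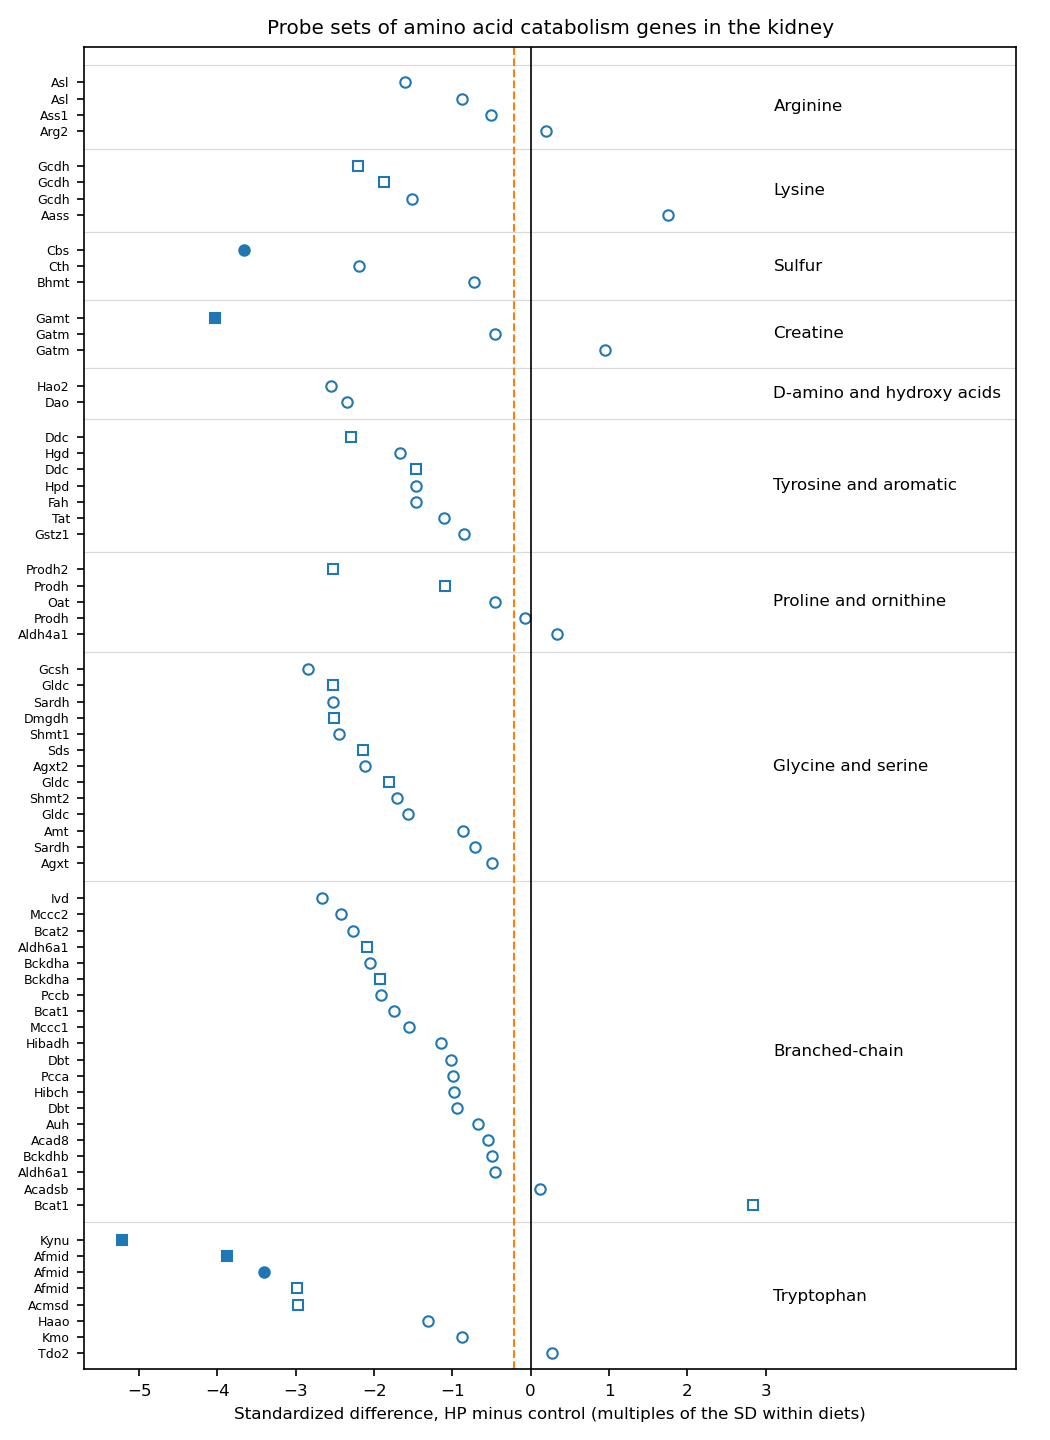
Standardized difference between HP and control (horizontal axis, multiples of the SD within diets) for the 69 member probe sets, grouped by pathway. Filled symbols were called by limma and squares by rank products, the solid line marks 0 and the dashed line the median of all probe sets at -0.21. The filled symbols are Kynu, 2 of Afmid, Gamt and Cbs, and the probe set farthest to the right is Bcat1 at 2.84.

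The remaining pathways comprised 19 genes, of which 18 were measured by 23 probe sets. Their median standardized difference was -1.47, against -0.21 over all probe sets. Of the 23, 2 were called lower (Gamt and Cbs), beside a background of 1.13%. The 7 probe sets of tyrosine and aromatic enzymes were all lower in value (median -1.47, none called), where 57.7% of all probe sets were. Ddc, the aromatic amino acid decarboxylase that makes dopamine in the proximal tubule, read 102.7, -74.1, -26.3 and -2.26 millionths on the control arrays and -136, -256, -149 and -104 on the HP arrays. Its diets did not overlap, and the difference was -161 ± 49.9 millionths (standardized difference -2.29, adjusted p = 0.13, rank product FDR 0.00046). The dimmer Ddc probe set read -34.8, 1.89, 15.7 and 17.2 millionths on the control arrays and -54.5, -45.0, -33.1 and -3.81 on the HP arrays. Its diets overlapped, with control replicate 1 among the HP arrays (standardized difference -1.47, adjusted p = 0.3, rank product FDR 0.042). The enzymes that degrade tyrosine in sequence, Tat, Hpd, Hgd, Gstz1 and Fah, were at -1.11, -1.47, -1.67, -0.85 and -1.46, with adjusted p between 0.3 and 0.57.

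The peroxisomal oxidases Dao, which acts on D-amino acids, and Hao2, which acts on hydroxy acids, had no overlap between diets. Hao2 read -0.13, 0.05, 0.22 and -0.14 millionths on the control arrays and -0.66, -0.86, -0.95 and -0.21 on the HP arrays. Its standardized difference of -2.55 carried an adjusted p of 0.32, because limma widens very small within-diet SDs towards the common spread. Dao was at -2.35 (adjusted p = 0.15).

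In lysine degradation the 2 members went in opposite directions in value. Aass, the bifunctional enzyme of the first steps, read 15.4, -3.49, -8.83 and -3.07 millionths on the control arrays and 25.8, 8.48, 11.3 and 20.2 on the HP arrays. Control replicate 1 lay within the HP range, and Aass was not called (standardized difference 1.75, adjusted p = 0.22). Gcdh, glutaryl-CoA dehydrogenase, was lower in value in all 3 probe sets (-2.21, -1.87 and -1.51, adjusted p 0.14, 0.19 and 0.29). In the probe set with the largest difference in millionths, its control arrays read 108.9, -106, 9.92 and -12.7 and its HP arrays -139, -525, -142 and -258 millionths. HP replicate 2 was far below the other HP arrays there, and rank products called this probe set lower (FDR 0.00019). The probe set at -2.21 read 19.6, -17.0, 0.58 and -3.13 millionths on the control arrays and -25.1, -55.4, -18.7 and -56.8 on the HP arrays. It had no overlap between diets and was also called by rank products (FDR 0.021).

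Among the arginine enzymes, the argininosuccinate enzymes Ass1 and Asl, which make arginine from citrulline in the kidney, gave -0.51 for Ass1 and -1.61 and -0.88 for Asl. Arg2, the mitochondrial arginase, was at 0.19. None was called, with adjusted p between 0.26 and 0.93.

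Side by side, the compared pathways had median standardized differences of -2.98 for tryptophan, -1.76 for glycine, serine and proline, and -1.08 for the branched-chain pathway. Their counts of probe sets called lower were 3 of 8, 0 of 18 and 0 of 20, beside a background of 1.13%. These medians are descriptions of small lists measured in the same rats, and the difference between pathways was not tested. With the brightest probe set of each gene the medians were -2.14, -2.13 and -1.07, and 1 of 6, 0 of 14 and 0 of 16 were called lower. The tryptophan median and count thus rested in part on the 3 probe sets of Afmid. After median centring the medians over the 8, 18 and 20 probe sets were -1.18, -1.06 and -1.01, beside -0.94 over all probe sets. The shift common to all probe sets limits this comparison. On the HP arrays the mean standardized deviation was between -3.66 and -1.75 for tryptophan, between -2.25 and -1.1 for glycine, serine and proline, and between -1.64 and -0.62 for the branched-chain pathway. On all 4 HP arrays the 8 tryptophan probe sets, 3 of them of Afmid, had the lowest mean of the 3 lists.

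**Figure D4:**
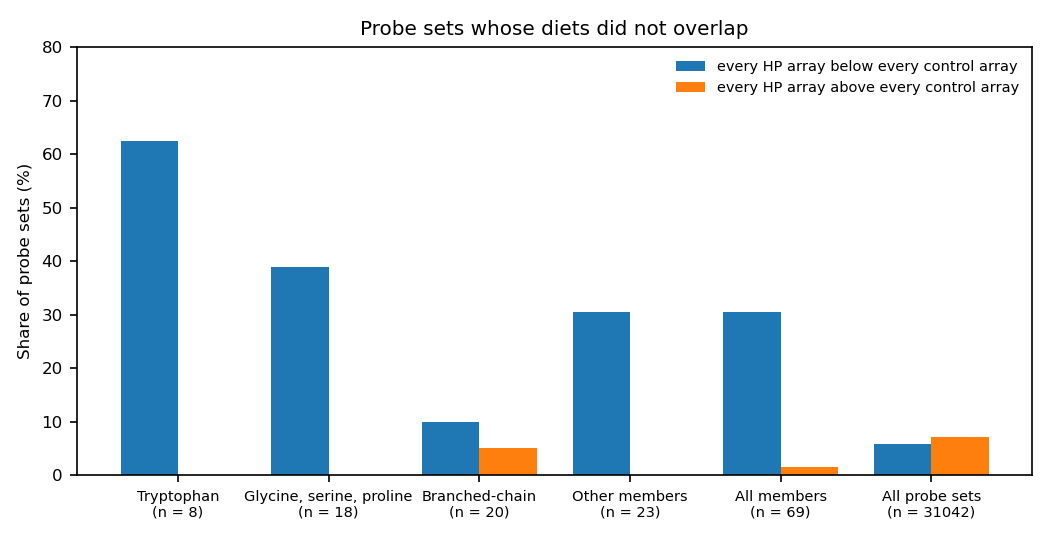
Share of probe sets (%) for which every HP array was below (blue) or above (orange) every control array, for each pathway, all members and all probe sets. The blue bars stand for 5 of 8 tryptophan, 7 of 18 glycine, serine and proline, 2 of 20 branched-chain and 7 of 23 other probe sets, and the bars at the right show the backgrounds of 5.81% and 7.09%. With the brightest probe set of each gene, not drawn, the first 3 counts were 3 of 6, 6 of 14 and 2 of 16.

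When the members were arranged by the compartment in which the enzyme works, the called probe sets were all cytosolic, 5 of 25 (median standardized difference -1.67). With the brightest probe set of each gene 3 of 20 were called. None of the 41 probe sets of mitochondrial enzymes was called (median -1.14), which is near the 1.13% of all probe sets called lower. Of the mitochondrial probe sets 36 were lower in value, and of the cytosolic ones 23, where 57.7% of all probe sets were. Rank products called 9 mitochondrial and 8 cytosolic probe sets lower, beside a background of 2.31%, and 1 cytosolic probe set higher. All HP arrays were below all control arrays for 9 and 10, beside a background of 5.81%, and above for 1 cytosolic probe set. The difference between compartments was not tested.

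Other genes of amino acid metabolism, from lists written to complete the pathways, followed the same pattern in value. Their lists were chosen with earlier results of these data known, so these genes are no independent check. Of 85 such genes, 71 were measured, 61 of these were lower in value with a median standardized difference of -1.3, and 6 were called lower and none higher, where 1.13% and 2.95% of all probe sets were called. After median centring none of the 71 was called, and the list medians were between -1.04 and -0.99, beside -0.94 over all probe sets. As for the members, the shift common to all probe sets keeps that setting from showing a difference from the background. The list headed by sulfur amino acids gave 3 of 13 called. These were Aldh9a1 (standardized difference -8.42, adjusted p = 0.0064), Mpst, mercaptopyruvate sulfurtransferase (-5.59, adjusted p = 0.012), and Suox, sulfite oxidase (-3.79, adjusted p = 0.033). Aldh9a1 is an aldehyde dehydrogenase of carnitine synthesis and not an enzyme of sulfur amino acids, which leaves 2 called genes of the latter. After median centring Aldh9a1, Mpst and Suox were at -1.03, -1.37 and -1.51 (adjusted p 0.98 for each). The branched-chain list gave 1 of 13, Bckdk, the kinase that inactivates the branched-chain dehydrogenase complex (-3.54, adjusted p = 0.04), followed by Etfb, a subunit of the electron carrier used by acyl-CoA dehydrogenases (-3.08, adjusted p = 0.06).

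The glycine, serine and proline list gave 2 of 15, Psat1 of serine synthesis (-3.35, adjusted p = 0.045) and Grhpr, which reduces glyoxylate and hydroxypyruvate (-3.33, adjusted p = 0.046). None was called among 6 further tryptophan genes, where Kyat1 and Aadat, both of which transaminate kynurenine, were at -2.64 and -2.5 (adjusted p 0.089 and 0.12). The same was true of 9 phenylalanine, histidine and lysine genes, led by Ftcd (-2.89, adjusted p = 0.069) and Tmlhe (-2.49, adjusted p = 0.1). Among 15 genes of nitrogen handling none was called. Asns, asparagine synthetase, was higher in value there (2.83, adjusted p = 0.072) and Got1, a cytosolic aspartate aminotransferase, lower (-2.64, adjusted p = 0.089).

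Genes that mark the cell types of the kidney were read on the same arrays. In whole kidney RNA, fewer cells of a type and less RNA per cell cannot be told apart. The 17 measured proximal tubule markers had a median standardized difference of -1.5 (-0.97 after median centring), close to that of the members. Of these markers 14 were lower in value and none was called, beside backgrounds of 57.7% lower in value and 1.13% called lower. Their mean standardized deviation was between -0.24 and 0.4 on the control arrays and between -1.98 and -0.6 on the HP arrays. The markers with the smallest p were Slc13a3, a carboxylate transporter (-3.04, adjusted p = 0.06), and Hnf4a, a transcription factor of the proximal tubule (-2.67, adjusted p = 0.088).

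Most fibroblast, macrophage and tubular injury genes rose. The background share called higher was 2.95% of all probe sets. Of 8 fibroblast genes 5 were called higher, led by Col3a1 and Dcn (standardized differences 8.0 and 6.84, adjusted p 0.0051 and 0.0067), and the list's mean standardized deviation on the HP arrays was between 4.22 and 4.78. Of 10 macrophage genes 8 were called higher, led by Ptprc and Aif1 (6.2 and 6.13, adjusted p 0.0084 and 0.0086), with HP arrays between 3.11 and 5.72. Of 12 injury genes 8 were called higher, led by Spp1 and Vim (9.42 and 7.5, adjusted p 0.0038 and 0.0058), with HP arrays between 4.22 and 6.0. On the control arrays these 3 lists lay between -0.71 and 0.59. After median centring 1, 4 and 6 of the genes in these lists were called higher, beside 78 of all 31042 probe sets. The list medians were then 3.14, 4.35 and 4.7.

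The other marker lists held few calls. None was called among 7 genes of the thick ascending limb and distal tubule (median -0.58), 4 of the podocyte (-0.38) and 7 of the endothelium (0.13). Single genes were called higher among 8 of the collecting duct (Scnn1b, list median -0.3), 6 of lymphocytes (Cd3g, 0.01) and 5 of the liver (Fgb, 0.16), beside a background of 2.95%. After median centring Scnn1b was lower in value (-0.86), Cd3g was at 2.69 without a call (adjusted p = 0.98) and Fgb was still called (4.41, adjusted p = 0.0019). The part of these cell populations in the lower values of the catabolic enzymes was not tested.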

How the data were processed

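Kidney RNA of 8 rats, 4 per diet, was hybridized to Affymetrix rat genome arrays, 1 rat per array. The authors summarized the probes over all arrays with the distribution free weighted method (DFW) in R/Bioconductor and deposited log values, taken here as log2. The versions are not given in the sources used here. The diets were compared by limma 3.58.1 under R 4.3.3 (adjusted p under 0.05, Benjamini-Hochberg over 31042 probe sets; 57 Affymetrix controls left out). Rank products used 16 pairs of arrays and 1000 permutations over 31099 probe sets. Tables were made in Python 3.11.15 (pandas 2.3.3, numpy 2.4.6, scipy 1.17.1) and drawn with matplotlib 3.10.9, and the tests were tested on simulated data. A single gene was given for 20826 probe sets, several for 436 and none for 9780, by the platform annotation. The number of arrays limits the precision.

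The members, lists and motifs were chosen with earlier results of these data known. Array values are given for members called by limma or rank products and for the member with the smallest p in each compared pathway, with a few others chosen after their values were seen. From the other lists, the 2 genes with the smallest p are named, besides single called genes. As alternatives, moderation was removed or made robust with a trend, arrays were weighted, the replicate number was added as a block, each gene was held by 1 probe set, arrays were centred on their medians or quantile normalized, the dimmest 25% of probe sets were dropped, rank products replaced limma, and arrays were left out one by one.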

Additional observations from a re-analysis of the deposited data

Results flagged for a closer look

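Among the 21 probe sets whose array values followed the naming rule, 42 groups of 4 arrays were examined for 1 array far from the rest, where chance would mark about 1 group in 20. In 3 groups the gap to the nearest array, divided by the group's range, was above Dixon's critical value for 4 arrays. For Acmsd, control replicate 1 was 38.3 millionths above the control mean (ratio 0.886). For Prodh2, control replicate 2 was at -14.7 millionths (ratio 0.886). For the Gldc probe set with a standardized difference of -1.81, HP replicate 4 was at -47.0 millionths (ratio 0.861). Each of these was a single array in one probe set.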

How the results depend on the processing

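The 5 member probe sets called lower became 1 without moderation of the spread (Kynu), 2 with the replicate number as a replicate block, 0 after median centring, and between 1 and 5 when each array was left out in turn. By rank products 17 were lower and 1 was higher. No member was called higher by limma in any alternative, with 0 in every refit that left out an array. Trend and robust moderation, array weights, removal of the dimmest 25% and the added Mmut probe sets left 5. With 1 probe set per gene 5 were also called, then with Acmsd and the brightest Afmid probe set (adjusted p 0.047 for both) because fewer tests were adjusted for. Among all probe sets the 350 lower and 915 higher calls became 171 and 522 without moderation, 115 and 254 with the replicate block, and 19 and 78 after median centring. Rank products gave 717 lower. Leaving out 1 array gave 79 to 219 lower and 339 to 672 higher. The median of the tryptophan pathway moved from -2.98 to -1.18 after median centring, and lay between -3.71 and -2.69 when arrays were left out. Array medians differed by up to 185 millionths, whereas the median SD within diets was 2.22 millionths, and centring moved the median difference of all probe sets from -0.224 to -61.3 millionths. Quantile normalization gave no usable test, since 41 of the 69 member probe sets took 1 value on all arrays. Of the 28 that varied, 25 (89.3%) were lower on the HP arrays, near the 84.2% of all varying probe sets. The replicate numbers were not taken as pairs. Same-numbered arrays correlated at 0.121, 0.0887, 0.0626 and 0.00148, and differently numbered arrays at -0.165 to 0.0842. The values of 0.121 and 0.0887 were thus above those of all differently numbered arrays, and these correlations cannot decide whether the numbers mark pairs. In the block fit, Cbs and the brightest Afmid probe set passed (adjusted p 0.043 and 0.045) and Kynu did not (adjusted p = 0.054). No difference of the 21 probe sets chosen by the naming rule changed its sign in the alternatives that included it. The Bcat1 probe set that was higher in value was not in the fits with 1 probe set per gene or without the dimmest 25%. With 1 probe set per gene, Bcat1 was held by its brighter probe set, at -1.75. The causes of these changes were not tested otherwise.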
